A study of Mus musculus with 18 samples.

Results

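The retinal levels of 10 genes of mouse chromosome 4, the chromosome that carries Plk3, were compared in Plk3-KO mice and WT littermates: Ndufs5, Pink1, Tmem35b, Clic4, Emc1, Hp1bp3, Ppt1, Cyp2j13, Zfp991 and Pgm1. They are 10 of the 18194 genes that the array annotation names by a probe set with a single symbol, and 10 of 1087 on chromosome 4. They were selected on their Plk3-KO minus WT difference of log2 signal in these same arrays, so every genotype difference below is a description of the chosen genes and carries no test. Every probe set whose single symbol was one of the 10 names was taken, 24 in all. A probe set of Ndufs5 shared with Ndufs5-ps and a probe set of Tmem35b shared with Zmym6 were left out because they name several genes.

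The series holds 18 Affymetrix arrays of whole retina, 3 from Plk3-KO mice and 3 from WT littermates at each of P0, P7 (postnatal days) and adult age, all given as strain C57Bl/6. Plk3 encodes a polo-like kinase, and the knockout is carried in the germline, so it is not limited to a cell type of the retina. The line was partly of Black Swiss background when it was obtained and was crossed to C57Bl/6 until the Rd1 retinal degeneration allele was gone. The strain of the DNA around Plk3 and the share of Black Swiss DNA that remains were not given in the sources used here. Whether an array is 1 animal or a pool is not given either, so the spread between 3 arrays may be partly technical. In whole tissue, fewer cells of a type and less RNA per cell cannot be told apart.

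Plk3 itself was read by 1 probe set, which lies at the 3′ end beyond the targeted region and so does not show the loss of that region. By qPCR the paper found the 3′ end raised and the targeted 5′ part strongly lowered in knockout retinas. The log2 signal of the probe set averaged 7.90 in Plk3-KO and 6.87 in WT retinas at P0. It averaged 7.30 in Plk3-KO and 6.10 in WT at P7, and 7.70 in Plk3-KO and 5.20 in WT adults. The genotypes overlapped at P7 only, where Plk3-KO replicate 2 read 6.1 and the WT arrays read 6.0, 6.3 and 6.0. Retinal marker genes, 14 of them measured, averaged 12.92 to 13.23 on the adult Plk3-KO arrays and 12.95 to 13.18 on the adult WT arrays. A list of 9 markers of lens, cornea, pigment epithelium, blood, microglia, vessels and connective tissue averaged 7.10 to 8.12 on the adult Plk3-KO arrays and 8.34 to 9.18 on the adult WT arrays, without overlap, while the ranges overlapped at P0 and at P7. Cryaa of the lens averaged 9.77 in adult Plk3-KO and 12.23 in adult WT retinas, and Krt12 of the cornea averaged 6.33 in adult Plk3-KO and 8.90 in adult WT retinas. Crygd, Hba-a1, Cx3cr1 and Cldn5 were also lower in adult Plk3-KO. Rpe65 (11.50 in Plk3-KO and 11.03 in WT), Tyrp1 (9.57 and 9.47) and Col1a1 (5.37 and 5.33) were not lower. The part of such tissue in the adult differences below was not tested. In the adult, replicate 3 of each genotype stood apart, with a median log2 signal of 7.20 in Plk3-KO, where the remaining arrays had 6.30 and 6.50, and of 7.0 in WT, where they had 6.40 each. At P7, Plk3-KO replicate 2 had a median of 6.40 beside 6.80 and 6.90, and WT replicate 3 had 6.40 beside 6.90 each. The 3′ minus 5′ actin signal was 2.70 on adult Plk3-KO replicate 3 and 1.60 to 1.80 on the other adult arrays. Adult values that moved with these arrays are given below without Plk3-KO replicate 3 and without all 4.

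A gene that lies near a targeted locus is inherited together with it. When a knockout line is made in one strain and crossed to another, a stretch of the original chromosome travels with the targeted allele until recombination removes it, so that knockout and WT littermates can carry different alleles of the neighbouring genes. Loss of Plk3, linked DNA of another strain and unequal binding of the array's short probes to its alleles cannot be told apart by this design. The 10 genes have unlike functions. Ndufs5 is a subunit of mitochondrial complex I, and Pink1 is the kinase that marks damaged mitochondria for removal. Emc1 belongs to the complex that inserts membrane proteins in the endoplasmic reticulum, Ppt1 is a lysosomal enzyme that removes fatty acids from proteins and is lost in an infantile neurodegeneration, and Pgm1 interconverts glucose phosphates. Clic4 is of the chloride intracellular channel family, Hp1bp3 is a chromatin protein related to linker histones, Cyp2j13 is a cytochrome P450 of a family that oxidises arachidonic acid, Zfp991 is named as a zinc finger protein, and Tmem35b as a transmembrane protein.

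The 250 bases before the transcription start are shown for 5 of the genes. Ndufs5, both probe sets of Pink1 and 1 of 3 probe sets each of Hp1bp3 and Emc1 were lower in Plk3-KO retinas without overlap at 2 ages, while Cyp2j13 had the highest positive difference. Tmem35b and 1 of 3 probe sets of Clic4 were also lower without overlap at 2 ages, but their promoters are not printed. The sequences are the RefSeq reference of assembly GRCm38.p6, printed 5′ to 3′ on the strand of the gene. They are not read from these mice.
Ndufs5, chr4:123718187-123718436, minus strand: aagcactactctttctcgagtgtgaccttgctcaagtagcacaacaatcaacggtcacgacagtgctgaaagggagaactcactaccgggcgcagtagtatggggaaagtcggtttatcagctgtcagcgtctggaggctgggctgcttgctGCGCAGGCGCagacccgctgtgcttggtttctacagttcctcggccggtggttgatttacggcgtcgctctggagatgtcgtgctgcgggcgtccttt
Pink1, chr4:138326297-138326546, minus strand: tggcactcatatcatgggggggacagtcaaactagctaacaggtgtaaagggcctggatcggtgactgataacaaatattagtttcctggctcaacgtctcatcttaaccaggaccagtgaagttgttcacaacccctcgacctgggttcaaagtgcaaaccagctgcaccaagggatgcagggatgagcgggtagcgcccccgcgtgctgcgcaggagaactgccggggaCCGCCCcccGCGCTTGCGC
Hp1bp3, chr4:138216877-138217126, plus strand: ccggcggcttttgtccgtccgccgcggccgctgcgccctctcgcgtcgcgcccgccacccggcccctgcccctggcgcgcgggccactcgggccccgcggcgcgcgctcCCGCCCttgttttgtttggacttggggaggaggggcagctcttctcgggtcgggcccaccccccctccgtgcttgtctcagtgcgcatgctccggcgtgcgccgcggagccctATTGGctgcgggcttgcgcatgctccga
Emc1, chr4:139352337-139352586, plus strand: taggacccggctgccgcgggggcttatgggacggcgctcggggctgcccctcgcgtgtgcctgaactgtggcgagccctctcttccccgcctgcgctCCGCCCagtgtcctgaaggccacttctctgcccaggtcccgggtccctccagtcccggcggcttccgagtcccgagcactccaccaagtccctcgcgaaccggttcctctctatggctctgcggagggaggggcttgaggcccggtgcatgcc
Cyp2j13, chr4:96077541-96077790, minus strand: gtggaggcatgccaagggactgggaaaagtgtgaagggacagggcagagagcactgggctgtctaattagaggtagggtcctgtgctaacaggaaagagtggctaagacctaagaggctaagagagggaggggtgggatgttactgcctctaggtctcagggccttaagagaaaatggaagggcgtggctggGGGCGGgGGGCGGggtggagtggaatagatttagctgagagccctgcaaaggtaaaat
Capitals mark matches on either strand to the NRF1 motif (GCGCA, any base, GCGC), the GC box GGGCGG and the CCAAT box CCAAT, and matches of different motifs do not overlap in these windows. The CRX core TAATCC was searched in the same way. Of the 10 genes, 9 had a promoter in the table, Zfp991 being the one without. NRF1 is a factor known for driving nuclear genes of mitochondrial proteins, and its motif was found in Ndufs5 and Pink1, 2 of the 9 promoters, against 3.86% of all 27025 promoters of this length. The GC box was found in 7 of the 9 (32.9% of all), the CCAAT box in 3 of the 9 (34.5% of all) and the CRX core in 0 of the 9 (6.38% of all). GC content ran from 46.4% in Ppt1 to 75.6% in Hp1bp3, and the median of all promoters was 52.0%.

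The first question was how the 24 probe sets differ between the genotypes at each age. The values are the deposited log2 MAS5 signals, and 1 unit is a doubling of the signal. The study compared only genes with a mean above 7 in either genotype, and 20 of the 24 probe sets passed that minimum at some age, which left 4 that never did: 1 of Hp1bp3, 2 of Ppt1 and 1 of Zfp991. At P0, 18 passed, and the 3 Plk3-KO arrays lay above all 3 WT arrays in 3 of them and below in 2. Over all probe sets tested at P0 these shares were 1.74% above and 1.75% below. At P7, 19 passed, with 2 above and 7 below, against 0.790% and 1.13% of all. In the adult, 17 passed, with 1 above and 6 below, against 2.11% and 3.37% of all. The members had been picked for such differences, so the counts are shown beside the background and nothing is read from the excess. On chromosome 4 without the members, the shares above and below were 2.17% and 1.75% at P0, 1.05% and 3.58% at P7, and 2.01% and 5.15% in the adult. Some members passed the minimum through 1 genotype only. Through Plk3-KO these were Cyp2j13 at P0, Zfp991 1451477_at at every age and Ppt1 1420015_s_at in the adult, and through WT, at P7, they were Ppt1 1420015_s_at, Pgm1 1437240_at and Zfp991 1424784_at.

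**Figure D1:**
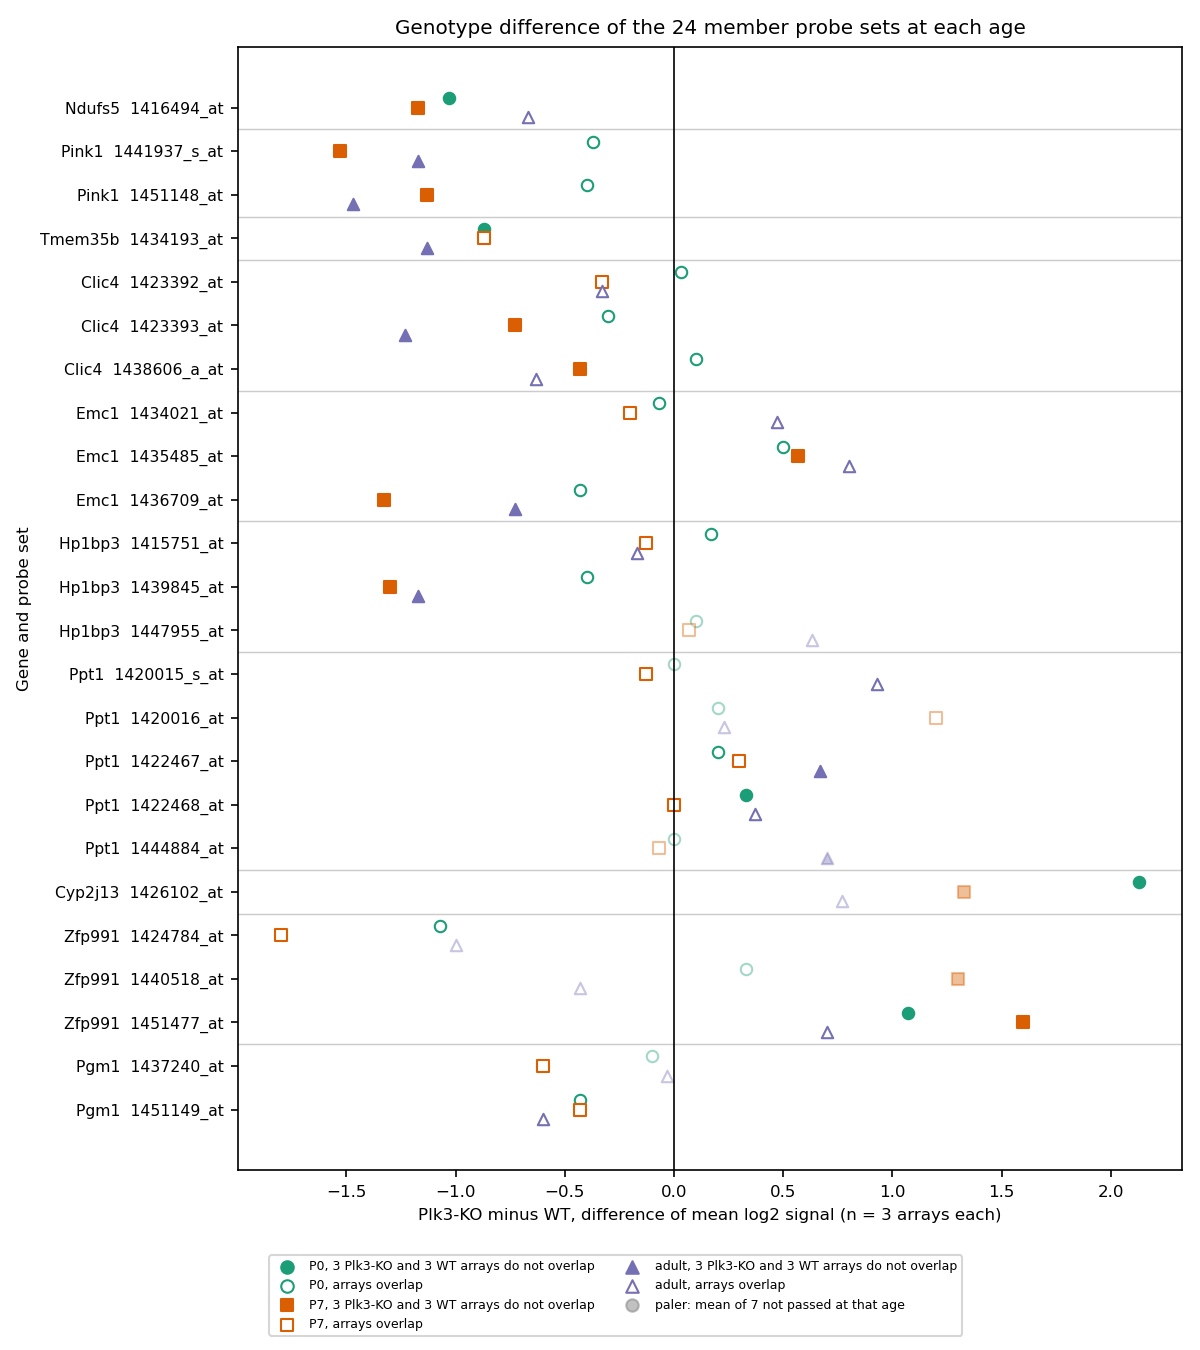
Plk3-KO minus WT difference of the mean log2 signal (x axis) for each of the 24 probe sets (rows) at P0 (circles), P7 (squares) and adult age (triangles), 3 arrays per genotype. Filled symbols mark differences in which the arrays of the genotypes do not overlap, and paler symbols lie below the study's minimum mean of 7. The differences run from -1.80 to 2.13, with filled symbols on the left for Ndufs5, Pink1, Tmem35b and 1 or 2 probe sets each of Clic4, Emc1 and Hp1bp3.

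Ndufs5 was lower in Plk3-KO retinas at each age. At P0 its log2 signals were 9.9, 10.4 and 10.8 in Plk3-KO and 11.6, 11.5 and 11.1 in WT. At P7 they were 11.2, 11.2 and 11.3 in Plk3-KO and 12.5, 12.2 and 12.5 in WT. In the adult they were 11.7, 11.7 and 12.5 in Plk3-KO and 12.9, 12.8 and 12.2 in WT. The genotypes were separate at P0 and P7 and overlapped in the adult, where the highest Plk3-KO array and the lowest WT array were replicates 3, the adult arrays that stood apart. The difference was -1.03 at P0, -1.17 at P7 and -0.67 in the adult, and the adult value was -0.93 without Plk3-KO replicate 3 and -1.15 without the 4 arrays. Among the other complex I subunits, 32 on the array, the median difference was -0.07 at P0 (31 tested), 0.03 at P7 (31 tested) and 0.08 in the adult (32 tested), and single subunits ran from -0.23 to 0.37 over the ages.

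Pink1 was read by 2 probe sets that agreed in sign at each age. On probe set 1441937_s_at the P0 signals were 9.3, 10.3 and 10.6 in Plk3-KO and 10.8, 9.9 and 10.6 in WT. At P7 they were 9.8, 9.9 and 9.7 in Plk3-KO and 11.5, 11.2 and 11.3 in WT, and in the adult 11.8, 11.2 and 11.2 in Plk3-KO and 13.0, 12.6 and 12.1 in WT. The genotypes mixed at P0 and were separate at P7 and in the adult. Probe set 1451148_at read 10.8, 11.0 and 10.8 in Plk3-KO and 12.4, 12.2 and 11.4 in WT at P7, and 11.5, 11.7 and 10.6 in Plk3-KO and 13.4, 12.7 and 12.1 in WT adults. Again no Plk3-KO array reached the lowest WT array at these ages, and at P0, where Plk3-KO reached 10.9 and WT went down to 10.4, the arrays overlapped. The differences were -0.37, -1.53 and -1.17 on the first probe set at P0, P7 and adult age, and -0.40, -1.13 and -1.47 on the second. Over 20 other genes of the PINK1 and Parkin pathway on the array the median difference was 0.05 at P0, 0.03 at P7 and 0.03 in the adult.

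Tmem35b kept a similar difference throughout. Its signals were 8.1, 7.9 and 8.3 in Plk3-KO and 9.2, 9.2 and 8.5 in WT retinas at P0. At P7 they were 8.0, 8.3 and 7.5 in Plk3-KO and 8.6, 8.3 and 9.5 in WT, and in the adult 7.1, 7.6 and 7.7 in Plk3-KO and 8.5, 8.8 and 8.5 in WT. The genotypes did not overlap at P0 or in the adult, and at P7 they met at 8.3. The difference was -0.87 at P0, -0.87 at P7 and -1.13 in the adult.

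**Figure D2:**
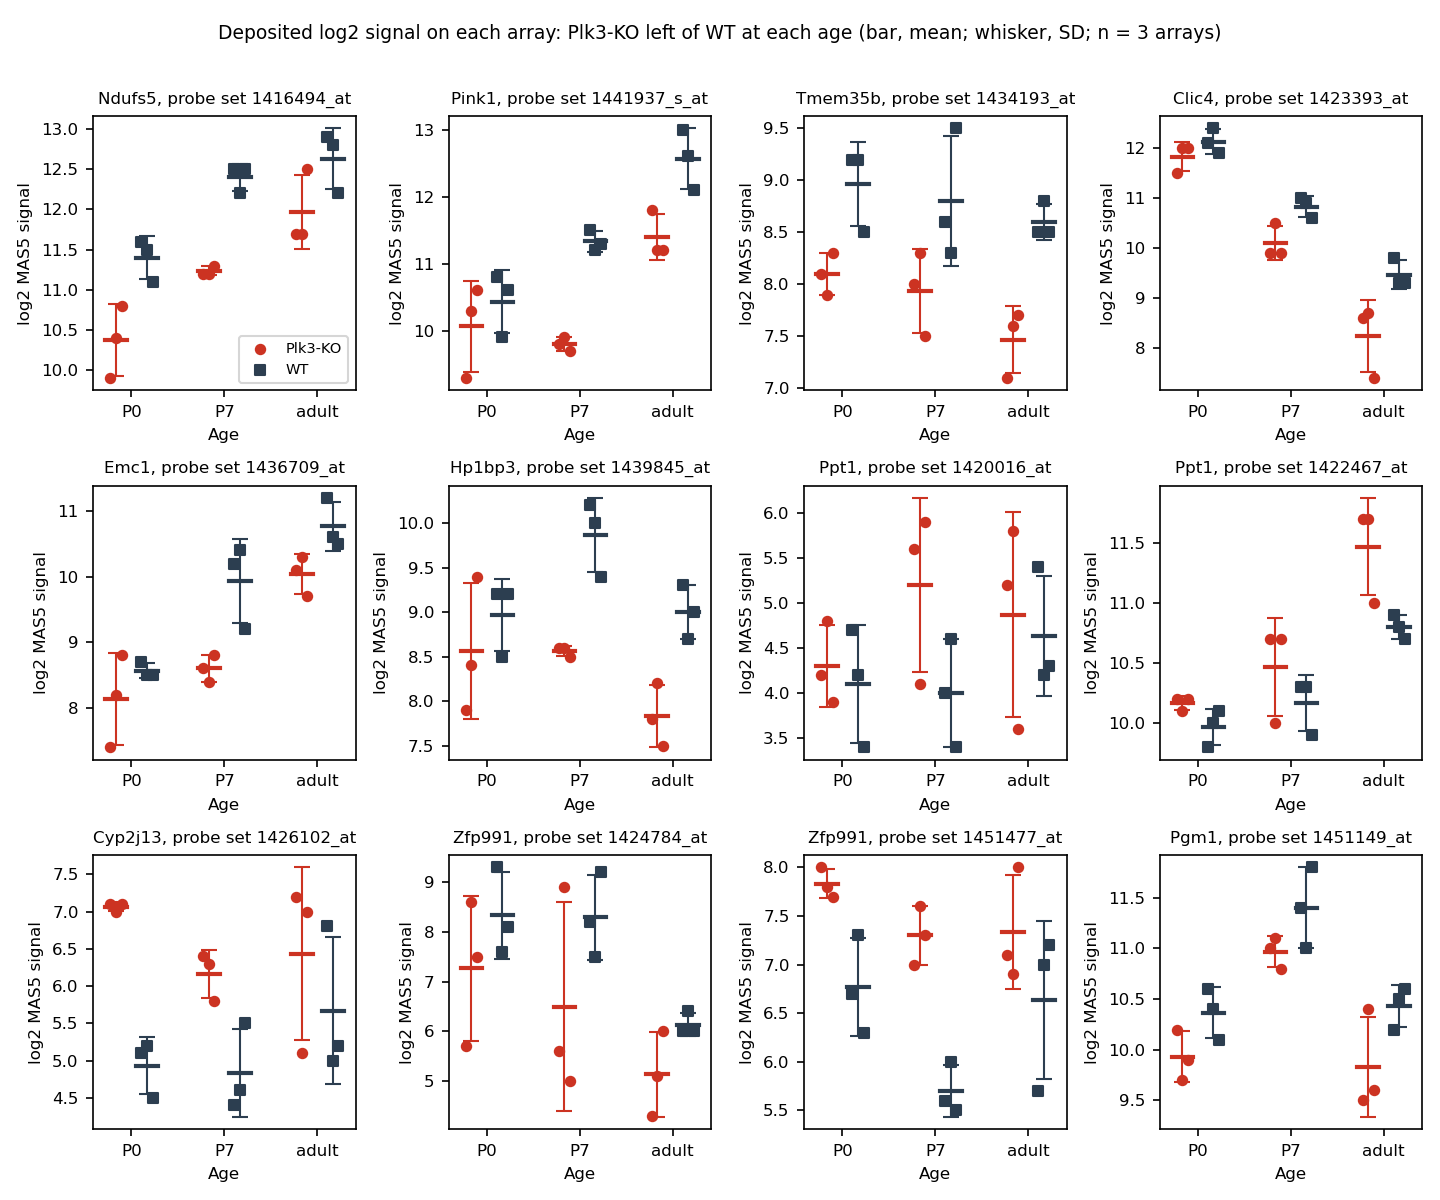
Deposited log2 MAS5 signal (y axis, own scale in each panel) of every array by age (x axis), with Plk3-KO (red circles) left of WT (dark squares), for the probe set with the largest mean difference of each gene and a further one each of Ppt1 and Zfp991. Horizontal bars are means and whiskers are SDs over 3 arrays. Pink1, Emc1 and Hp1bp3 overlap at P0 and are separate later, Tmem35b is apart at P0 and in the adult, and Cyp2j13 is apart at P0, with 7.0 to 7.1 in Plk3-KO and 4.5 to 5.2 in WT.

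Clic4, Emc1 and Hp1bp3 each had 1 probe set with a large negative difference and others without it. Clic4 1423393_at read 11.5, 12.0 and 12.0 in Plk3-KO and 12.1, 12.4 and 11.9 in WT at P0, and 9.9, 10.5 and 9.9 in Plk3-KO and 11.0, 10.9 and 10.6 in WT at P7. In the adult it read 8.6, 8.7 and 7.4 in Plk3-KO and 9.8, 9.3 and 9.3 in WT. The genotypes overlapped at P0 and were separate from P7 on, with the lowest value of all on adult Plk3-KO replicate 3. Its difference was -0.30 at P0, -0.73 at P7 and -1.23 in the adult, where it was -0.82 without that replicate and -0.90 without the 4 arrays. Clic4 1438606_a_at differed by 0.10 at P0, -0.43 at P7 and -0.63 in the adult, and the adult value was -0.22 without Plk3-KO replicate 3 and -0.25 without the 4 arrays. Clic4 1423392_at differed by 0.03, -0.33 and -0.33 at the same ages, with overlap at each. All 3 probe sets of Clic4 were lower in Plk3-KO at P7 and in the adult, and at P0 only 1 was.

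Emc1 1436709_at read 7.4, 8.2 and 8.8 in Plk3-KO and 8.7, 8.5 and 8.5 in WT at P0, and 8.6, 8.4 and 8.8 in Plk3-KO and 10.2, 10.4 and 9.2 in WT at P7. In the adult it read 10.1, 10.3 and 9.7 in Plk3-KO and 11.2, 10.6 and 10.5 in WT. The Plk3-KO arrays spread around the WT arrays at P0 and lay below all of them at P7 and in the adult. The difference was -0.43 at P0, -1.33 at P7 and -0.73 in the adult. Emc1 1435485_at ran the other way. It read 9.0, 8.6 and 8.7 in Plk3-KO and 8.4, 7.8 and 8.4 in WT at P7, and 8.3, 8.5 and 8.0 in Plk3-KO and 7.1, 7.2 and 8.1 in WT adults. The third adult WT array lay inside the Plk3-KO range, and the other adult and P7 arrays of the genotypes were apart. Its differences were 0.50 at P0, 0.57 at P7, where the genotypes did not overlap, and 0.80 in the adult. The adult value was 0.93 without Plk3-KO replicate 3 and 1.25 without the 4 arrays. Emc1 1434021_at lay between the other probe sets of the gene, at -0.07, -0.20 and 0.47. The probe sets of Emc1 thus spanned 1.90 log2 units of difference at P7, and which of them follows the level of the transcript was not tested. Among the other 10 genes of the ER membrane protein complex the median differences were -0.10 at P0, -0.07 at P7 and -0.02 in the adult.

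Hp1bp3 1439845_at read 7.9, 8.4 and 9.4 in Plk3-KO and 9.2, 8.5 and 9.2 in WT at P0, and 8.5 to 8.6 in Plk3-KO and 9.4 to 10.2 in WT at P7. In the adult it read 7.8, 8.2 and 7.5 in Plk3-KO and 9.3, 8.7 and 9.0 in WT. As for Pink1 and Emc1, the genotypes overlapped at P0 only. The difference was -0.40 at P0, -1.30 at P7 and -1.17 in the adult. Hp1bp3 1415751_at, with a mean log2 signal of 12.53 over the 18 arrays, read 12.5 to 12.6 in Plk3-KO and 12.6 to 12.8 in WT at P7 and differed by 0.17, -0.13 and -0.17 at the same ages and overlapped at each. The third probe set, 1447955_at, had a mean of 2.89 and never passed the minimum. The other heterochromatin protein 1 genes and partners, 10 on the array, had median differences of -0.03, 0.00 and 0.07.

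Cyp2j13 had the highest positive difference of the 24 probe sets. Its log2 signals at P0 were 7.1, 7.0 and 7.1 in Plk3-KO and 5.1, 5.2 and 4.5 in WT. At P7 they were 6.4, 6.3 and 5.8 in Plk3-KO and 4.4, 4.6 and 5.5 in WT, and in the adult 7.2, 5.1 and 7.0 in Plk3-KO and 6.8, 5.0 and 5.2 in WT. Every Plk3-KO array was above every WT array at P0 and P7, and the adult arrays were mixed. The difference was 2.13 at P0, 1.33 at P7 and 0.77 in the adult, where it was 0.48 without Plk3-KO replicate 3 and 0.25 without the 4 arrays. The gene passed the minimum at P0 only, through Plk3-KO, and its WT signals ran from 4.4 to 6.8 over the ages, below the level the study took as expressed. Cyp2j6, the only other Cyp2j gene above the minimum, differed by -0.17 at P0, -0.53 at P7 and -0.30 in the adult.

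Zfp991 had probe sets of opposite sign. On 1451477_at the P0 signals were 8.0, 7.8 and 7.7 in Plk3-KO and 6.7, 7.3 and 6.3 in WT, and the P7 signals 7.0, 7.6 and 7.3 in Plk3-KO and 5.6, 6.0 and 5.5 in WT. In the adult they were 7.1, 6.9 and 8.0 in Plk3-KO and 5.7, 7.0 and 7.2 in WT. Plk3-KO was above WT on every array at P0 and P7, with overlap in the adult, and the differences were 1.07, 1.60 and 0.70. In contrast, on 1424784_at the P0 signals were 5.7, 8.6 and 7.5 in Plk3-KO and 9.3, 7.6 and 8.1 in WT, and the P7 signals 5.6, 8.9 and 5.0 in Plk3-KO and 8.2, 7.5 and 9.2 in WT. Here single Plk3-KO arrays differed from each other by up to 3.90 log2 units, and the genotypes overlapped at every age. The differences were -1.07 at P0, -1.80 at P7 and -1.0 in the adult. The adult difference of 1451477_at was 0.37 without Plk3-KO replicate 3 and 0.65 without the 4 arrays. The third probe set, 1440518_at, never passed the minimum and differed by 0.33 at P0, 1.30 at P7, where Plk3-KO lay above WT without overlap, and -0.43 in the adult.

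Ppt1 had 5 probe sets, with small positive differences on the brighter ones. Ppt1 1422467_at, the brightest with a mean of 10.51, read 10.1 to 10.2 in Plk3-KO and 9.8 to 10.1 in WT at P0, and 11.7, 11.7 and 11.0 in Plk3-KO and 10.9, 10.8 and 10.7 in WT adults. All adult Plk3-KO arrays were above all WT arrays, whereas at P0 and P7 they overlapped. The differences were 0.20 at P0, 0.30 at P7 and 0.67 in the adult. Ppt1 1422468_at differed by 0.33 at P0 without overlap, by 0.00 at P7 and by 0.37 in the adult. Ppt1 1420015_s_at differed by 0.93 in the adult, by 0.10 without Plk3-KO replicate 3 and by 0.75 without the 4 arrays. On that probe set both adult replicates 3 were the highest of their genotype, at 8.9 in Plk3-KO and 7.6 in WT. The other 2, 1420016_at and 1444884_at, had means of 4.52 and 5.27 and never passed the minimum. In the adult all 5 had a positive difference.

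Pgm1 had no age at which the genotypes were separate. Pgm1 1451149_at read 10.2, 9.7 and 9.9 in Plk3-KO and 10.6, 10.4 and 10.1 in WT at P0. At P7 it read 11.0, 11.1 and 10.8 in Plk3-KO and 11.4, 11.0 and 11.8 in WT, and in the adult 9.5, 10.4 and 9.6 in Plk3-KO and 10.2, 10.5 and 10.6 in WT. The lowest array of each age was a Plk3-KO array. The differences were -0.43, -0.43 and -0.60. Pgm1 1437240_at, near the minimum with a mean of 6.77, differed by -0.10, -0.60 and -0.03, and the adult value was -0.73 without Plk3-KO replicate 3 and -0.05 without the 4 arrays, since replicate 3 read 8.1 in both genotypes.

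The second question was whether the shift is the same at the 3 ages. Of the 24 probe sets, 10 had a negative difference at all ages, 6 a positive one at all ages, and 8 were mixed or had a difference of 0. Among the 25085 probe sets above the minimum in any group, 11.0% were negative and 8.38% positive at all ages. The 24 are not a like set, because they include the 4 that never passed the minimum. Of these, Hp1bp3 1447955_at and Ppt1 1420016_at were positive at all ages. No member was separate between the genotypes at all 3 ages. At 2 ages or more, 7 members were separate and lower (0.199% of all, 50 probe sets) and 2 were separate and higher (0.124% of all, 31 probe sets). The 2 were Cyp2j13 and Zfp991 1451477_at. The 7 were Ndufs5, both Pink1 probe sets, Tmem35b, Clic4 1423393_at, Emc1 1436709_at and Hp1bp3 1439845_at.

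A test of the change in the genotype difference between ages was made with limma over all 18 arrays. It called 0 of 25085 probe sets between P0 and P7, between P0 and adult, and between P7 and adult, with 128 (0.510%), 472 (1.88%) and 351 (1.40%) at an unadjusted p under 0.05, and the adjusted p of every member was 1. Because members were picked partly at single ages, this test is not wholly independent of the choice. The intervals leave room for sizeable change. For Ndufs5 the difference changed by -0.13 ± 0.78 between P0 and P7 (95% half-width, n = 3 arrays per group), and for Tmem35b by 0.00 ± 0.95. For Pink1 1441937_s_at it changed by -1.17 ± 0.94 and for Clic4 1423393_at between P0 and adult by -0.93 ± 0.89, intervals that exclude 0 before adjustment only. For Emc1 1436709_at and Hp1bp3 1439845_at the change between P0 and P7 was -0.90 ± 1.02 each, and for Cyp2j13 between P0 and adult it was -1.37 ± 1.81. For the genes just named other than Pink1 and Clic4, an equal shift at both ages lies inside the interval.

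**Figure D3:**
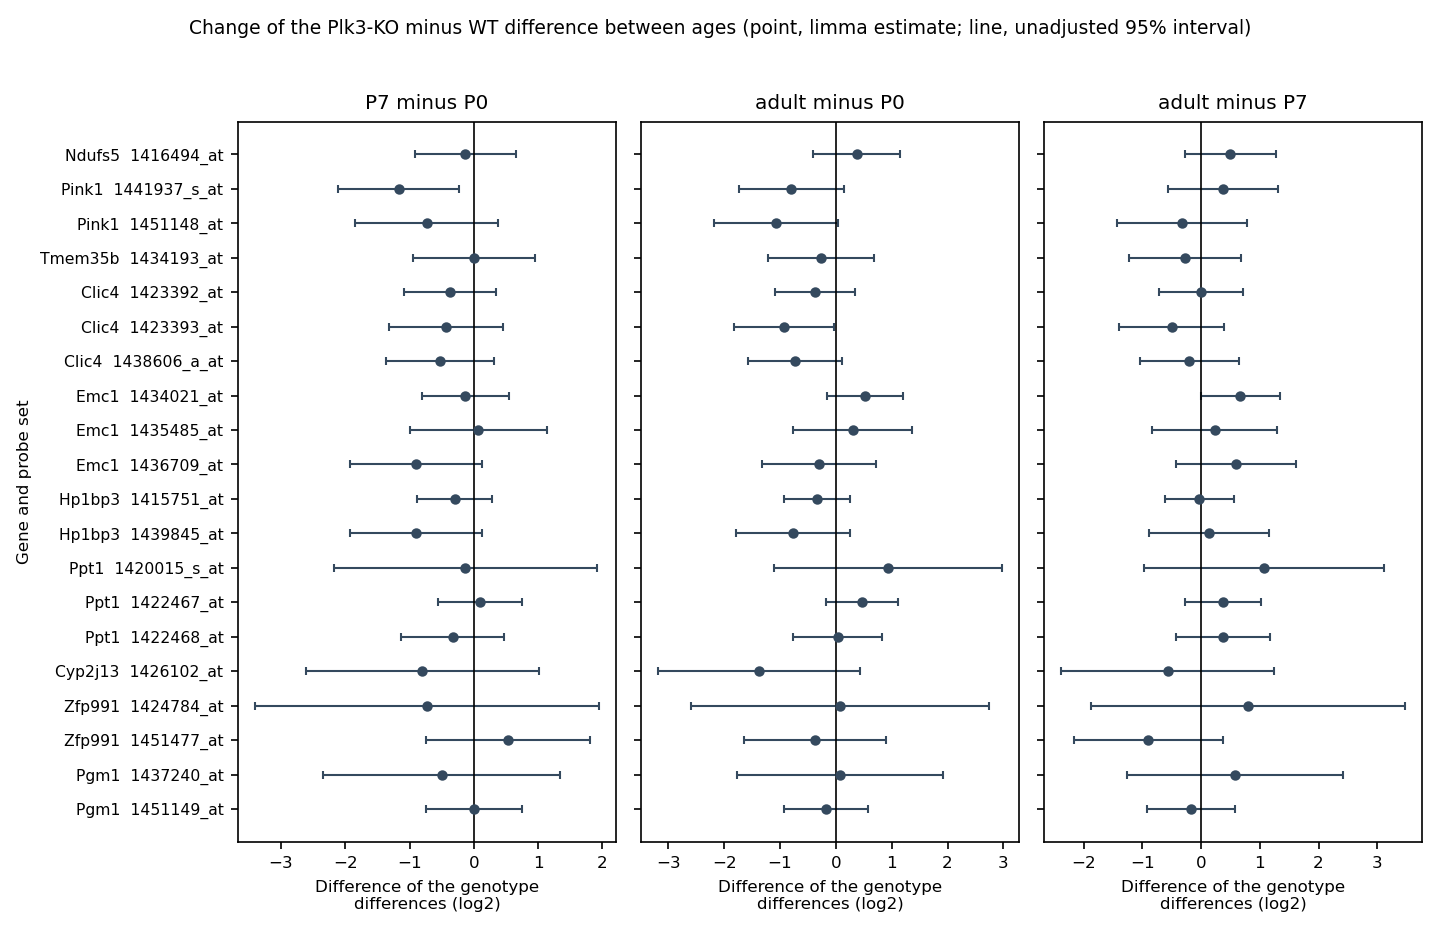
Change in the Plk3-KO minus WT log2 difference between pairs of ages (x axis, 3 panels) for the 20 member probe sets above the minimum (rows). Points are limma estimates and lines unadjusted 95% intervals from 18 arrays. Most intervals cover 0, Pink1 1441937_s_at at -1.17 ± 0.94 between P0 and P7 does not, and no adjusted p was below 1.

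The change with age within each genotype was not itself used to choose the genes and was tested with limma. It uses the same arrays as the genotype differences that chose them, so these tests are not wholly independent of the choice. Clic4 fell at both steps in both genotypes. Clic4 1423393_at fell by 1.73 in Plk3-KO (adjusted p = 0.000562, limma) and by 1.30 in WT (adjusted p = 0.00551, limma) between P0 and P7, and by 1.87 in Plk3-KO and 1.37 in WT between P7 and adult (limma adjusted p = 0.000527 and 0.00524). Clic4 1438606_a_at fell at the same 4 steps, by 0.97 to 1.50, although the WT step between P0 and P7 lost its call when any of 4 single arrays was left out (P7 WT replicates 2 and 3, P0 WT replicates 2 and 3). Clic4 1423392_at fell by 0.93 between P0 and P7 in Plk3-KO (adjusted p = 0.0109, limma), a call lost without P0 Plk3-KO replicate 2. With each array centred on its median, all WT calls of Clic4 were lost, and in Plk3-KO only 1423393_at was still called between P0 and P7.

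Pgm1 1451149_at rose and then fell. Between P0 and P7 it rose by 1.03 in Plk3-KO and by 1.03 in WT (limma adjusted p = 0.00725 and 0.00772), and between P7 and adult it fell by 1.13 in Plk3-KO and by 0.97 in WT (limma adjusted p = 0.00541 and 0.0144), the WT step losing its call without adult WT replicate 1 or without P7 WT replicate 3. Both falls lost their call when each array was centred on its median and with the methods' t-test. Ndufs5 rose between P0 and P7 by 0.87 in Plk3-KO and by 1.00 in WT (limma adjusted p = 0.0265 and 0.0124). The WT call was lost without P0 WT replicate 3, and the Plk3-KO call without any of 5 single arrays, the 3 at P7 and P0 replicates 1 and 2. Among the other complex I subunits, 10 of 32 rose over this step in Plk3-KO and 7 of 32 in WT, and none fell, among them Ndufb9 by 1.20 in Plk3-KO and 1.13 in WT.

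Pink1 1441937_s_at rose between P7 and adult by 1.60 in Plk3-KO (adjusted p = 0.00253, limma) and by 1.23 in WT (adjusted p = 0.0135, limma), the WT call being lost without adult WT replicate 1. Between P0 and P7 the same probe set changed by -0.27 in Plk3-KO and 0.90 in WT, neither past the threshold (limma adjusted p = 0.616 and 0.0557). Pink1 1451148_at rose over this step by 1.13 in WT (adjusted p = 0.0423, limma), a call lost when any of 8 of the 18 arrays was left out. Emc1 1436709_at rose by 1.37 in WT between P0 and P7 (adjusted p = 0.0095, limma) and by 1.43 in Plk3-KO between P7 and adult (adjusted p = 0.00883, limma), with steps of 0.47 in Plk3-KO and 0.83 in WT for the other interval. Ppt1 1422467_at rose by 1.00 in Plk3-KO between P7 and adult (adjusted p = 0.00497, limma), beside 0.63 in WT (adjusted p = 0.0551, limma), and the difference of these steps was 0.37 ± 0.65. The Plk3-KO call was lost with median centring and with the methods' t-test. Emc1 1434021_at fell by 0.70 in WT between P7 and adult (adjusted p = 0.0442, limma), a call lost when any of 13 of the 18 arrays was left out.

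In counts, 2 member probe sets rose and 3 fell in Plk3-KO between P0 and P7, beside 10.1% and 9.66% of all probe sets tested, and 4 rose and 2 fell in WT, beside 10.3% and 8.85%. Between P7 and adult, 3 rose and 3 fell in Plk3-KO (7.96% and 9.20% of all), and 1 rose and 4 fell in WT (8.54% and 8.79% of all). Tmem35b, Cyp2j13, Hp1bp3 and Zfp991 had no call at either step in either genotype. Of the 22 calls, 14 held whichever single array was left out, 12 were lost when each array was centred on its median, and 16 were lost with the methods' t-test after adjustment.

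Position along the chromosome was then read from the order of the genes, since the build of the array annotation is not named. Cyp2j13 and Pgm1 lie before Plk3 with 153 and 134 array genes between, and the other 8 lie after it. Ppt1 is nearest, with 60 array genes between, followed by Ndufs5 with 73, Tmem35b with 123, Clic4 with 251, Hp1bp3 with 298, Pink1 with 302, Emc1 with 323 and Zfp991 with 392. Overlap at P0 and none at P7 and in the adult was seen in both probe sets of Pink1 and in 1 of 3 each of Clic4, Hp1bp3 and Emc1, which lie at places 860, 809, 856 and 881 of 1087. These genes were chosen for a genotype difference. The share of other probe sets with that pattern was not counted, so nothing is read from their places.

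Each gene beside Plk3 or a member was read here by its brightest probe set only, and dimmer ones were left out. On these probe sets the genes beside Plk3 had small differences when averaged over the ages. Of the 5 array genes on each side of Plk3, 7 were above the minimum, and their differences averaged over the ages ran from -0.34 to 0.18 with a median of -0.02. In the adult alone, Kif2c differed by -0.77 with overlap and Tmem53 by -0.50 without overlap. Of the 39 genes next to the 10 members, 24 were above the minimum, with a median of 0.08 and a range of -0.77 (Sh2d5, next to Hp1bp3) to 1.62 (Cap1, next to Ppt1). No neighbour was separate at all 3 ages. Cap1, which encodes an actin-binding protein, differed by 1.80 at P0, 1.80 at P7 and 1.27 in the adult, without overlap at 2 of the ages, beside 0.20, 0.30 and 0.67 for Ppt1 1422467_at. Cap1 and Ppt1, next to each other in order, thus had unlike differences on the probe sets read. Sh2d5 differed by -0.37 at P0, -1.0 at P7 and -0.93 in the adult, without overlap at 1 of the ages. These values were near those of Hp1bp3 1439845_at, at -0.4, -1.3 and -1.17. They were unlike those of the brighter Hp1bp3 1415751_at, at 0.17, -0.13 and -0.17. Whether neighbours are alike in general was not tested.

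Outside the members, 11 probe sets of chromosome 4 were lower and 6 were higher in Plk3-KO without overlap at 2 ages or more. These are counts among 1320 probe sets of chromosome 4, and the 6 include Plk3 itself and both probe sets of Cap1. At all 3 ages, 3 probe sets were lower, and of these Tceanc2 (-0.43, -1.20 and -0.90 at P0, P7 and adult age) and Med8 (-1.67, -1.83 and -2.10) are on chromosome 4. The brighter probe set of Tceanc2 was lower too, at -0.30, -0.80 and -0.30, while that of Med8 differed by 0.13, -0.03 and 0.17. Both genes were named after their values were seen. The genes were then counted by order with 1 probe set for each gene, the brightest, so a shift on a dimmer probe set is not counted. None of the 147 tested genes at places 1 to 200 and none of the 131 at places 201 to 400 was separate at 2 ages or more, in either direction. At places 401 to 600, the stretch that holds Plk3, 0 of 129 non-member genes were lower and 1, Plk3 itself, was higher. At places 601 to 800, 3 of 143 were lower and 2 were higher, and at places 801 to 1087, 1 of 192 was lower and 1 was higher. Over all 5 stretches the median difference was between -0.03 and -0.02.

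**Figure D4:**
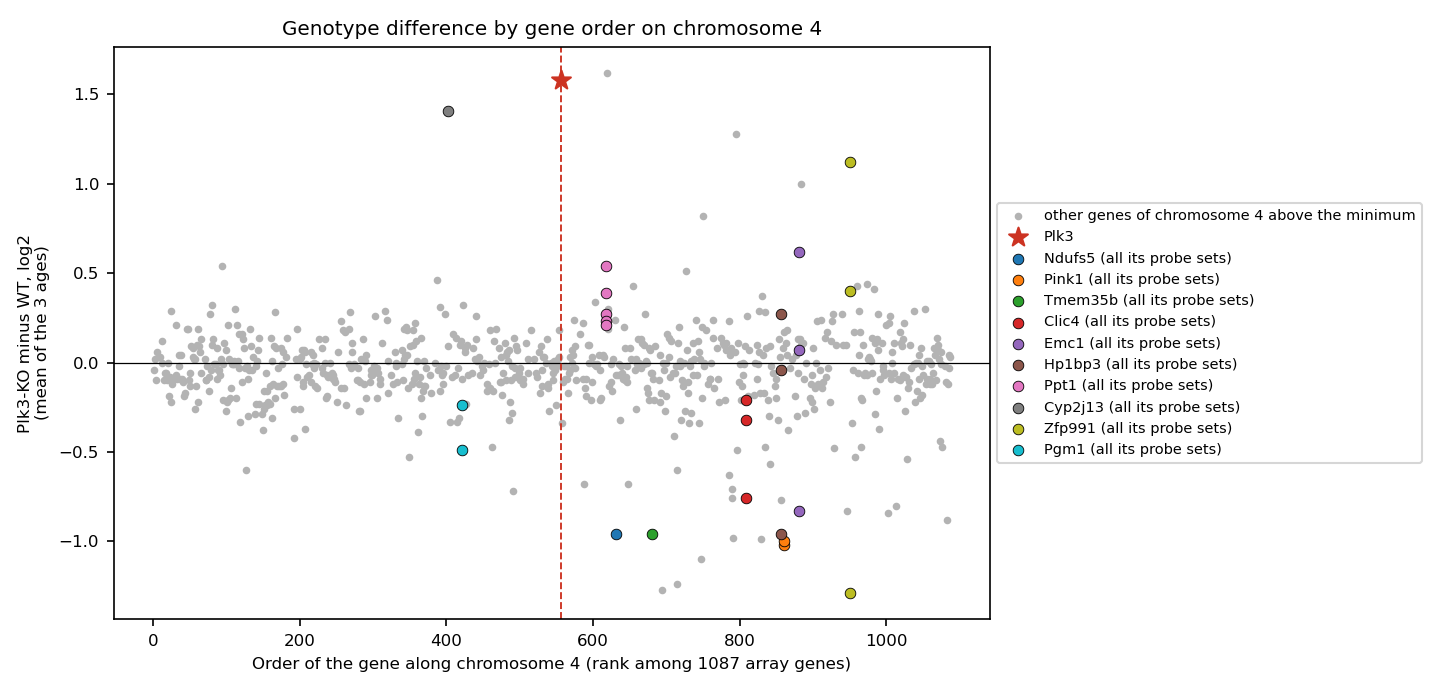
Plk3-KO minus WT log2 difference averaged over P0, P7 and adult age (y axis) by the order of genes along chromosome 4 (x axis, rank among 1087 array genes). Grey points are other genes above the minimum, each by its brightest probe set only, and coloured points are every probe set of the 10 members. The star and dashed line mark Plk3, and each point is a mean over 18 arrays. Most grey points lie near 0 along the whole chromosome, while the members run from -1.29 (Zfp991) to 1.41 (Cyp2j13), and Plk3 lies at 1.58.

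Likeness between genes was measured as Pearson's r of the values centred on the mean of each age, over the 18 arrays, for the probe set of each member with the largest mean difference. All points share the same arrays, and genes that differ between the genotypes correlate for that reason alone, so r is given as a description. The probe set most like Emc1 1436709_at was Hp1bp3 1439845_at (r = 0.921), and Pink1 1441937_s_at was also nearest to Hp1bp3 (r = 0.898) and then to Emc1 (r = 0.850). Clic4 1423393_at was nearest to Camk2n1 of chromosome 4 (r = 0.927), an inhibitor of a calcium-dependent kinase whose differences were -0.77, -2.13 and -2.97 at P0, P7 and adult age on that probe set, and 0.03, 0.27 and -0.17 on its brighter one. Ndufs5 was nearest to Iqcc (r = 0.897) and Tmem35b to Klhl22 of chromosome 16 (r = 0.867) and then to Pgm1 (r = 0.849). The 30 places, 3 for each member, were filled by 23 genes, 5 of them members, which were chosen for the same genotype difference. Of the 18 others, 8 were on chromosome 4, beside 6.25% of the 21448 candidate probe sets. The lists of Ppt1 and Cyp2j13 held no gene of chromosome 4, and the Ppt1 probe set used never passed the minimum.

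Related genes were counted to see whether the members' families or complexes moved with them. Limma called 0 probe sets for genotype at any age among all those tested, with 85 (0.376%) at P0, 123 (0.575%) at P7, 1008 (4.80%) in the adult and 396 (1.58%) for the mean over the ages at an unadjusted p under 0.05. Without adult WT replicate 3 limma called 105 in the adult, and without the 4 arrays that stood apart 338. The methods' t-test at the study's own threshold counted 510, 253 and 662 at these ages, and 0 after adjustment. With no call among all probe sets, the lists are described by their medians only. The 12 other genes of neuronal ceroid lipofuscinosis and palmitoyl thioesterases had median differences of 0.08, -0.08 and -0.02 at P0, P7 and adult age, beside the positive values of Ppt1. Of 12 genes of phosphoglucomutase and glycogen metabolism on the array, 10 at P0, 10 at P7 and 11 in the adult were tested, with medians of 0.05, -0.05 and -0.33. Clic1, the brightest other Clic gene, differed by 0.23, -0.33 and -0.10, and it fell between P0 and P7 by 1.60 in Plk3-KO and by 1.03 in WT (limma adjusted p = 0.00114 and 0.023), as Clic4 did. Clic6 rose over the same step instead, by 1.93 in Plk3-KO and by 3.3 in WT (limma adjusted p = 0.0241 and 0.000629). The median difference of all probe sets tested was 0.00 at P0, 0.00 at P7 and -0.03 in the adult.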

How the data were processed

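The values are the authors' deposited log2 signals of Affymetrix mouse genome arrays, made with MAS5 background adjustment and normalization in the affy package of R, per the study's methods. The MAS5 version was not given in the sources used here. The table holds 45101 probe sets with 1 decimal, and 64 controls were left out. Genes were named through the platform annotation, and gene order and promoters come from RefSeq tables of GRCm38.p6. Arrays were mapped to age, genotype and replicate by their labels, and 18 were used.

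R 4.3.3 with limma 3.58.1 fitted 1 mean per age and genotype (12 residual and 4.07 prior degrees of freedom, variance trend), with Benjamini-Hochberg adjustment within each contrast at 0.05 over probe sets with a group mean above 7. The fit was tested on simulated data. With 3 against 3 arrays, an exact two-sided test cannot go below p = 0.1. The number of arrays limits the precision. Figures were drawn with Python 3.11.15 and matplotlib 3.10.9.

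The members, the gene lists and the tests were chosen with earlier results of these data known. The rule for named genes took all probe sets of the members, Plk3, the array genes beside Plk3 and each member (summarised, and named where the genotypes did not overlap at all ages), the 3 genes most like each member and, from each list, genes called or brightest. Examples of these are printed, and Sh2d5, Cap1, Kif2c and Tmem53 were named after their values were seen. Alternatives were quantile normalization, median centring, no minimum or a minimum of 8, no variance trend, a replicate block, the methods' t-test (two-tailed, pooled variance) and leaving out each array. Equal numbers of Plk3-KO and WT arrays were not taken as pairs, because no label ties them to a litter. Other comparisons, including the authors' own, were not used, apart from the qPCR of Plk3 cited above.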

Additional observations from a re-analysis of the deposited data

How the results depend on the processing

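No called result changed direction under the alternatives run. The probe sets called for genotype, 0 with all arrays, ranged from 0 to 1 at P0, from 0 to 1 at P7, from 0 to 105 in the adult (the most without adult WT replicate 3) and from 0 to 3 for the mean over ages when 1 array was left out. Those called for a difference between ages ranged from 0 to 3 (adult against P0) and from 0 to 2 (adult against P7). Without the 4 arrays that stand apart (adult Plk3-KO and WT replicates 3, P7 Plk3-KO replicate 2 and P7 WT replicate 3), an alternative chosen after seeing the data, 338 were called in the adult, 16 for the mean, 23 for adult against P0 and 10 for adult against P7. Leaving out 1 array, the members called between P0 and P7 ranged from 1 to 2 higher and 2 to 3 lower in Plk3-KO, and from 2 to 6 higher and 1 to 2 lower in WT. Between P7 and adult they ranged from 3 to 4 higher, with 3 lower, in Plk3-KO, and from 1 to 2 higher and 2 to 6 lower in WT. With median centring, 1 was lower in Plk3-KO and 0 in WT between P0 and P7, and 0 were higher and 0 lower in WT between P7 and adult. This centring moved the median P7 minus P0 change of all probe sets to 0.13 in both genotypes, beside -0.10 as deposited. The t-test left 1 higher in Plk3-KO, and 1 higher and 1 lower in WT, between P0 and P7, and then 0 higher and 0 lower in Plk3-KO, and 0 higher and 1 lower in WT, between P7 and adult. Quantile normalization and a minimum of 8 each gave 2 higher in WT between P7 and adult, and so did leaving out the 4 arrays, with 8 lower. Members above WT without overlap numbered 1 at P0 and 1 at P7 with a minimum of 8, and 1 at P7 after quantile normalization.

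With the replicate number as a block, 0 probe sets were called for genotype or for a difference between ages, and the members called with age kept their counts. Deviations of Plk3-KO and WT arrays of equal number correlated at 0.188, -0.058 and 0.104 at P0, 0.379, -0.485 and -0.61 at P7, and 0.489, 0.098 and 0.544 in the adult, so the numbers were not taken as pairs. Limits of these data include 3 arrays per group, the 4 arrays that stand apart, the tissue markers that separate the adult genotypes, and the dim signals of Cyp2j13, Zfp991 and 2 Ppt1 probe sets.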
